A study of Homo sapiens with 6 samples.

Results

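Genes that span at least 500 kilobases (kb) of the genome were followed in LX-2, a widely used immortalised line of human stellate cells, which are the collagen-producing cells of the scarring liver. Members were all deposited Ensembl genes that GENCODE release 44 (GRCh38) annotates as protein-coding with a span of at least 500000 bases from first to last annotated base. Families whose symbols begin with ARHGAP, ARHGEF, KIF, KLHL, LAMA, RAB, RBM, SNX or ZNF were set aside, which removed 10 genes. That left 282 genes of the 32750 in the table, with spans of 500909 bases to 2305 kb. The genes were chosen by annotation alone (protein-coding type, span and symbol), but with the fold changes of these libraries known, in which the longest genes were lower. The direction of the list as a whole is therefore described here and supports nothing.

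There were 2 groups of 3 libraries each: LX-2 cells labelled as transfected with an siRNA against ATP6AP1, and LX-2 cells transfected with a non-targeting control siRNA. Both groups are given as wild type in genotype, and the submitters call the replicates independent and biological. ATP6AP1, an accessory subunit of the proton pump that acidifies lysosomes, stood at 144, 146 and 140 CPM (counts scaled to a common normalised library size) in the libraries labelled ATP6AP1 siRNA, against 116, 117 and 129 CPM in the control siRNA libraries. Its mRNA was thus higher where the label says it was targeted (log2 fold change 0.25, SE 0.0608, edgeR adjusted p = 0.00425), so the directions below describe these libraries as labelled, with no depletion measured.

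Total counts ran from 15644464 to 17880546 in the libraries labelled ATP6AP1 siRNA and from 17700222 to 19656533 in the control siRNA libraries. Of 10 stellate cell or fibroblast markers, 9 had a row, and their summed level was 3948 to 4399 CPM in the libraries labelled ATP6AP1 siRNA against 6621 to 7184 CPM in the control siRNA libraries, with DES and LUM under 1 CPM. Of 4 hepatocyte markers, ALB had 6 counts in all libraries together, and APOA1 and APOB had 1 each, while SERPINA1 averaged 5.02 CPM in the libraries labelled ATP6AP1 siRNA and 8.05 CPM in the control siRNA libraries. Of 4 immune markers PTPRC and CD3E averaged under 1 CPM in both groups, and the sum, mostly CD68, was 58.1 to 63.9 CPM in the libraries labelled ATP6AP1 siRNA and 60.5 to 72.5 CPM in the control siRNA libraries. Of 5 endothelial markers PECAM1, CDH5 and VWF averaged under 1 CPM, and the sum, mostly TEK and KDR, was 18.4 to 22.5 CPM in the libraries labelled ATP6AP1 siRNA and 17.3 to 19.02 CPM in the control siRNA libraries. KDR alone averaged 6.81 CPM in the libraries labelled ATP6AP1 siRNA and 2.40 CPM in the control siRNA libraries. Of 4 epithelial markers EPCAM, CDH1 and KRT19 averaged under 1 CPM, and the sum, mostly KRT7, was 6.17 to 7.27 CPM in the libraries labelled ATP6AP1 siRNA and 4.39 to 6.93 CPM in the control siRNA libraries. The 5 neuronal markers summed to 21.2 to 25.4 CPM in the libraries labelled ATP6AP1 siRNA and 21.7 to 23.3 CPM in the control siRNA libraries. These sums hide opposite differences. SLC17A7 averaged 7.21 CPM in the libraries labelled ATP6AP1 siRNA and 1.96 CPM in the control siRNA libraries, and GAD1 2.55 and 1.67 CPM. In the same order SYT1, itself a lowered member, averaged 7.17 and 12.04 CPM, and SNAP25 6.03 and 7.03 CPM. RBFOX3, also a member, averaged under 1 CPM in both groups. Stellate marker and SERPINA1 levels were thus lower, and KDR and SLC17A7 levels higher, between the same groups as the results below. Their part in those results was not tested. In RNA from a whole culture, fewer cells that express a gene and less RNA of it per cell cannot be told apart.

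RNA polymerase II needs hours to cross a gene of such length, most of which is intron, so the output of a very long gene depends on elongation to its end as well as on initiation. Many such genes encode cell adhesion molecules, ion channels and scaffolds best known from neurons, and several lie at common fragile sites, regions that break when replication is slowed. In fibroblast-like cells the expressed ones include protein kinase C alpha, utrophin, T-cadherin and RUNX1.

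The DNA just upstream of the start site is printed for the 4 lowered members that changed most among those of at least 2 CPM, because their promoters can be read against those of raised members. Each is the 150 bases before the most 5′ start in RefSeq (GRCh38.p14), written 5′ to 3′ on the strand of the gene, with capitals marking GGGCGG (the GC box bound by Sp1) or CCAAT (the CCAAT box bound by NF-Y) on either strand. In this order they lie at chr1:246507280-246507429 (minus strand), chr3:188152871-188153020, chr11:19345086-19345235 and chr17:66302463-66302612 (plus strand).
SMYD3: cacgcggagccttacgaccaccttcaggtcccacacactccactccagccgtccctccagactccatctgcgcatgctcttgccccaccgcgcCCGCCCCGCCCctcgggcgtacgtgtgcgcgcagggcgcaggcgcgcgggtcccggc
LPP: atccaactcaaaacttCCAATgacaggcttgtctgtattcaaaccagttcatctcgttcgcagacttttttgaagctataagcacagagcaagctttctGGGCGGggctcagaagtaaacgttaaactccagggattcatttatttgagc
NAV2: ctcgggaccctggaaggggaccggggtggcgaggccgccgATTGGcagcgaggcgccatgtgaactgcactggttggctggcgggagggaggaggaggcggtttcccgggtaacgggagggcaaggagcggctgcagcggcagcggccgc
PRKCA: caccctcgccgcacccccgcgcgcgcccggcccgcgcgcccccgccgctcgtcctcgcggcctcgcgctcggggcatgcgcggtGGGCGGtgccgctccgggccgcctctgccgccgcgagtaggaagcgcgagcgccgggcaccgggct

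The same stretch follows for 3 raised members, at chr1:65792360-65792509 (plus strand), chr10:115093215-115093364 (plus strand) and chr1:42035935-42036084 (minus strand).
PDE4B: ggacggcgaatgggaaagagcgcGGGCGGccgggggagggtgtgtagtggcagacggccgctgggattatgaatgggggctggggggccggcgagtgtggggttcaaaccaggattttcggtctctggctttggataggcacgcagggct
ATRNL1: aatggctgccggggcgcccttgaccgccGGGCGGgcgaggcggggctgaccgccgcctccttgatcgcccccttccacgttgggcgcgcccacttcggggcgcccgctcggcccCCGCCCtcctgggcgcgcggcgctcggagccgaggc
HIVEP3: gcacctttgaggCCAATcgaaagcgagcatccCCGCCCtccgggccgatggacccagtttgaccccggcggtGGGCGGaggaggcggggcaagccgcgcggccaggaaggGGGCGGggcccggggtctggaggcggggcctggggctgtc

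Among the sequences shown, a GC box stood in each but that of NAV2, which held a CCAAT box. Over the 250 bases upstream of the start, 128 of the 155 tested members matched a RefSeq promoter by symbol. GGGCGG was found in 56.3% of these promoters, against 42.2% of all 27305 promoters in the table, and CCAAT in 25% against 33.0%. TATAAA (the TATA box) was found in 8.59% against 11.2%, GGAATG (bound by TEAD factors) in 10.9% against 11.95%, TGANTCA (bound by AP-1) in 4.69% against 6.57%, CACGTG (an E-box) in 8.59% against 6.46%, and the NRF1 motif in 2.34% against 1.13%. The set of all promoters is less rich in GC: the median GC content was 65.8% in the member promoters, 64.8% in the 10435 promoters of tested protein-coding genes and 57.6% in all promoters. A match is a description of the letters and not of binding.

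Most of the very long genes with enough counts to test were lower in the libraries labelled ATP6AP1 siRNA. Of 282 members, 155 passed the count filter. Of these, 107 were lowered (69.0%), against 26.6% lowered among all 15372 genes tested, 7 were raised (4.52%), against 26.7%, and 41 did not pass the test (edgeR quasi-likelihood F test, adjusted p under 0.05). Either call was made in 53.3% of all tested genes. The median log2 fold change of the tested members was -0.73, with an interquartile range of -1.09 to -0.26, beside -0.0043 over all tested genes and -0.0026 over 12972 tested protein-coding genes. At least 2-fold changes were reached by 45 lowered and 3 raised members, where the shares over all tested genes are 3.12% and 4.25%.

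All 3 libraries labelled ATP6AP1 siRNA lay under all 3 control siRNA libraries in 114 of the 155 tested members, a pattern seen in 29.7% of all tested genes, and over them in 9, against 29.8%. The other 127 members are close to silent here. Each had at least 1 count in some library, 45 had at most 3 counts over all libraries together, and the highest total was 59 counts. FHIT, a fragile site gene that encodes a diadenosine triphosphate hydrolase, had 1 count in all, so a difference in it was not detectable at this depth. The filter keeps a gene that is high in either group, so the 155 are not a picture of all 282.

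Summed over all members, the very long genes made up 0.303, 0.301 and 0.305% of the CPM of the libraries labelled ATP6AP1 siRNA, against 0.497, 0.504 and 0.522% in the control siRNA libraries. The summed level averaged 2894 ± 27.2 CPM in the libraries labelled ATP6AP1 siRNA and 5334 ± 146 CPM in the control siRNA libraries (SD, n = 3 each). The groups did not overlap, and the spread between replicate libraries was small beside the gap.

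**Figure D1:**
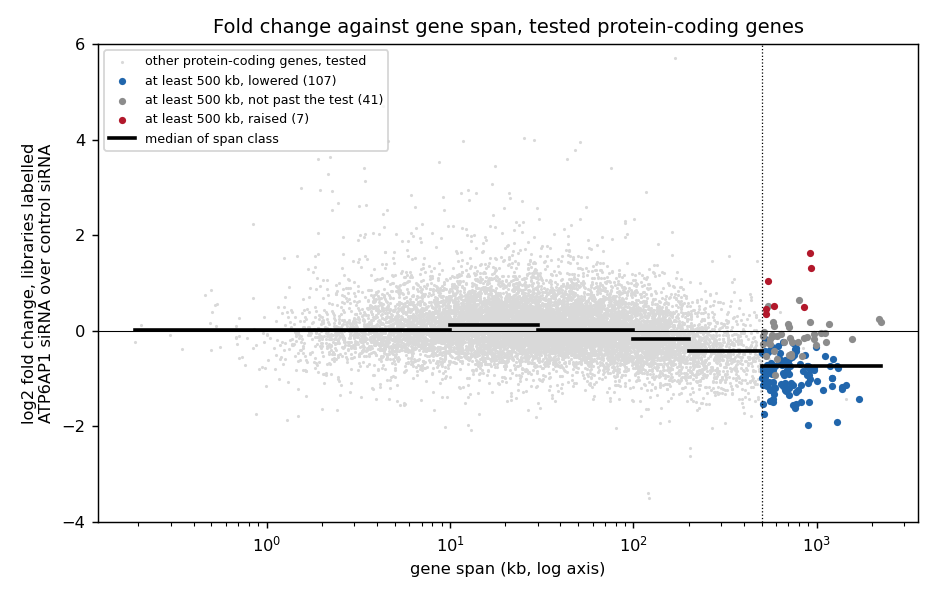
Log2 fold change of libraries labelled ATP6AP1 siRNA over control siRNA libraries (vertical axis) against gene span in kb (log axis) for tested protein-coding genes, with the 155 members right of the dotted line coloured by call. Black bars are class medians, which stand at -0.43 for 200 to 500 kb and -0.73 for at least 500 kb.

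The adhesion molecules known best from synapses and growing axons were lowered in 13 of 16 tested members (81.25%), with none raised and a median log2 fold change of -0.88. Shares here and in the lists below stand beside 26.6% lowered and 26.7% raised over all tested genes. Over all tested members the shares were 69.0% and 4.52%, and differences between lists were not tested. KIRREL3, an immunoglobulin superfamily adhesion protein, stood at 36.1, 30.4 and 26.5 CPM in the libraries labelled ATP6AP1 siRNA, against 74.6, 84.3 and 91.0 CPM in the control siRNA libraries (log2 fold change -1.43, SE 0.105, edgeR adjusted p = 2.27e-07). NRXN3, a presynaptic neurexin, stood at 11.4, 10.6 and 10.3 CPM in the libraries labelled ATP6AP1 siRNA, against 28.9, 28.8 and 28.5 CPM in the control siRNA libraries (log2 fold change -1.42). In both genes the highest library labelled ATP6AP1 siRNA was under the lowest control siRNA library. NRG1, a ligand of ERBB receptors, was at 11.1 ± 1.42 CPM in the libraries labelled ATP6AP1 siRNA and 24.7 ± 1.89 CPM in the control siRNA libraries (n = 3 each, ± SD; log2 fold change -1.15), and SDK1, a sidekick cell adhesion protein, was at 9.77 ± 1.80 CPM in the libraries labelled ATP6AP1 siRNA and 16.8 ± 0.834 CPM in the control siRNA libraries (-0.79). TENM2, a teneurin, had the lowest fold change of the list (-1.90), at a mean of 1.57 CPM. The axon guidance receptor ROBO1 was at 0.14 and did not pass the test (adjusted p = 0.475).

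Of 11 tested cadherins, catenins and junction scaffolds, 9 were lowered (81.8%) and 1, PCDH9, was raised (9.09%), with a median log2 fold change of -1.203. CDH4 (R-cadherin) stood at 144, 135 and 118 CPM in the libraries labelled ATP6AP1 siRNA, against 274, 301 and 348 CPM in the control siRNA libraries (log2 fold change -1.22, SE 0.0909, edgeR adjusted p = 2.65e-07). LPP, a LIM protein of focal adhesions and cell contacts (chromosome 3, 188153284 to 188890671), stood at 46.3, 48.9 and 51.1 CPM in the libraries labelled ATP6AP1 siRNA, against 140, 145 and 141 CPM in the control siRNA libraries, 2.91-fold lower. Neither gene overlapped between groups, and LPP varied little within each. CDH13 (T-cadherin) fell by 0.73. Of its exonic bases 21.4% were shared with other genes, the largest overlap being with its antisense gene CDH13-AS2. Its value is thus uncertain, since the sources used here do not give the strand setting of the counting. FRMD4A, a scaffold of the polarity protein PARD3, fell by 1.49 (13.5% of exonic bases shared with other genes, the largest overlap with PRPF18). FRMPD4, a postsynaptic scaffold, fell by 1.495. PARD3 and its relative PARD3B, both organisers of cell polarity, fell by 1.203 and 1.23. The scaffold DLG2 was at 0.26 and did not pass (adjusted p = 0.389).

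Matrix proteins, proteoglycans and glycosylation enzymes had 5 of 6 tested members lowered (83.3%) and none raised, with a median log2 fold change of -0.66. Whichever single library was left out, 4 were lowered. SPOCK1 (testican-1), a secreted proteoglycan, stood at 191, 210 and 224 CPM in the libraries labelled ATP6AP1 siRNA, against 313, 319 and 343 CPM in the control siRNA libraries (log2 fold change -0.64, SE 0.0677, edgeR adjusted p = 5.09e-06). ADAMTSL1, a secreted ADAMTS-like protein, stood at 41.3, 41.2 and 35.6 CPM in the libraries labelled ATP6AP1 siRNA, against 80.0, 81.2 and 83.1 CPM in the control siRNA libraries (-1.05). Both groups were apart in each of these genes. THSD4, an ADAMTS-like protein of fibrillin microfibrils, fell by 0.83.

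Cytoskeletal proteins and membrane linkers had 9 of 14 tested members lowered, none raised and 5 not past the test, with a median log2 fold change of -0.66. NAV2, a neuron navigator that binds microtubules, stood at 37.6, 30.7 and 34.0 CPM in the libraries labelled ATP6AP1 siRNA, against 101, 94.0 and 103 CPM in the control siRNA libraries (log2 fold change -1.54, SE 0.0784, edgeR adjusted p = 1.30e-08). Of its exonic bases 7.74% were shared with other genes, the largest overlap being with NAV2-AS1. UTRN (utrophin), which ties actin to the dystroglycan complex, stood at 49.3, 49.4 and 51.4 CPM in the libraries labelled ATP6AP1 siRNA, against 93.1, 91.4 and 94.2 CPM in the control siRNA libraries (-0.89). Both genes lay wholly under the control siRNA values. NAV3, a relative of NAV2, fell by 0.73, and DOCK1, an exchange factor for Rac, by 0.89. Utrophin's relative DMD (dystrophin) was at 0.19 and did not pass (adjusted p = 0.190), though it passed as raised with library size alone (0.33) and with a trend on transcript length and GC removed (0.36). Nor did SYNE1 (nesprin-1), a linker of the nuclear envelope, at -0.02 (adjusted p = 0.820), which was at 0.29 and passed with that trend removed. DLC1, a GTPase activator, stood at 122, 128 and 125 CPM in the libraries labelled ATP6AP1 siRNA and 133, 146 and 143 CPM in the control siRNA libraries, the smallest lowered value of the list (-0.17, adjusted p = 0.0275). That call was lost without either ATP6AP1 siRNA replicate 1 (-0.15, adjusted p = 0.0612) or 2 (-0.19, 0.0626), and without control siRNA replicate 2 (-0.13, 0.150) or 3 (-0.14, 0.104). It was also lost with library size alone (-0.033, 0.653), with the trend on transcript length and GC removed (-0.080, 0.161) and with the replicate block (-0.17, 0.0702).

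The list of kinases, phosphodiesterases and signalling adaptors, which also holds genes of membrane traffic such as EXOC4 and TRAPPC9, had the most tested members. Of these 28, 20 were lowered (71.4%) and 1 raised (PDE4B, 3.57%), with a median log2 fold change of -0.75. PRKCA (protein kinase C alpha; chromosome 17, 66302613 to 66810743) stood at 98.6, 96.7 and 97.8 CPM in the libraries labelled ATP6AP1 siRNA, against 265, 282 and 296 CPM in the control siRNA libraries (log2 fold change -1.53, SE 0.0599, edgeR adjusted p = 2.42e-09). Its span of 508.131 kb is among the shortest of the members, and its 2.88-fold difference is among the largest. PTPRM, a receptor phosphatase that binds its like on neighbouring cells, stood at 59.5, 57.6 and 56.6 CPM in the libraries labelled ATP6AP1 siRNA, against 103, 107 and 100.04 CPM in the control siRNA libraries (-0.83). FAF1, an adaptor of the segregase VCP, fell by 0.97, AGAP1, a GTPase activator for Arf proteins, by 1.12 and PLCB1, a phospholipase C, by 1.10. Among the phosphodiesterases that degrade cAMP, PDE1C and PDE10A, which also degrade cGMP, fell by 1.26 and fell by 0.93, PDE4D was at -0.17 and did not pass (adjusted p = 0.189), and PDE4B is described with the raised members. PRKG1, the cGMP-dependent kinase, was at -0.78 with a mean of 1.52 CPM (adjusted p = 0.0307), and this call was lost under 9 alternatives, among them leaving out ATP6AP1 siRNA replicate 1 (-0.62) or 3 (-0.82) and control siRNA replicate 1 (-0.60) or 2 (-0.81).

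**Figure D2:**
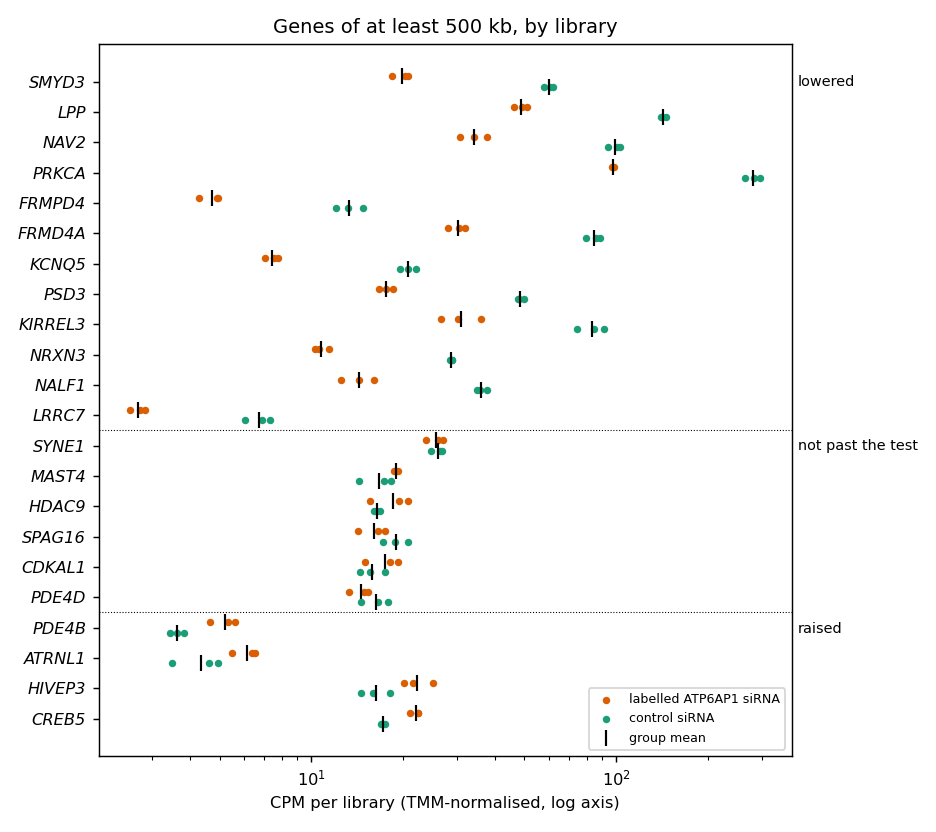
Normalised CPM in each library (log axis) for the 12 lowered members that changed most, the 6 most abundant members that did not pass the test and the 4 raised members of at least 2 CPM, with libraries labelled ATP6AP1 siRNA drawn above control siRNA libraries and a bar at each group mean. The 12 lowered and 4 raised genes were chosen among those whose groups do not overlap, and the groups overlap in the 6 others except MAST4.

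Transcription and chromatin regulators had 11 of 15 tested members lowered (73.3%) and 1 raised (HIVEP3, 6.67%), with a median log2 fold change of -0.52. SMYD3, a lysine methyltransferase (chromosome 1, 245749342 to 246507312), had the largest lowered difference of any member of at least 2 CPM. It stood at 20.7, 18.4 and 20.2 CPM in the libraries labelled ATP6AP1 siRNA, against 60.7, 62.1 and 58.1 CPM in the control siRNA libraries, 3.05-fold lower (log2 fold change -1.61, SE 0.0740, edgeR adjusted p = 6.95e-09). RUNX1, a transcription factor of blood formation that is also expressed in mesenchymal cells, stood at 82.2, 73.8 and 73.5 CPM in the libraries labelled ATP6AP1 siRNA, against 147, 156 and 151 CPM in the control siRNA libraries (-0.99). The groups were far apart in both genes. CAMTA1, a calmodulin-binding activator, fell by 0.34. RORA, a nuclear receptor of the clock, was at -0.26 (adjusted p = 0.0380), and its call was lost under 12 alternatives, among them leaving out each single library except control siRNA replicate 3 (-0.20 to -0.28). HDAC9, a class IIa deacetylase, was at 0.18 and did not pass (adjusted p = 0.179); without ATP6AP1 siRNA replicate 1 it was at 0.29 and passed.

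Channels, pumps, transporters and receptors had 8 of 16 tested members lowered, none raised and 8 not past the test, with a median log2 fold change of -0.63. KCNMA1, the large-conductance calcium-activated potassium channel, stood at 40.9, 42.1 and 40.3 CPM in the libraries labelled ATP6AP1 siRNA, against 101, 97.4 and 101 CPM in the control siRNA libraries (log2 fold change -1.28, SE 0.0608, edgeR adjusted p = 8.58e-09). KCNQ5, a voltage-gated potassium channel, stood at 7.76, 7.55 and 7.03 CPM in the libraries labelled ATP6AP1 siRNA, against 22.0, 19.6 and 20.7 CPM in the control siRNA libraries (-1.48). Of its exonic bases 8.22% were shared with other genes, the largest overlap being with KCNQ5-AS1. The groups did not overlap in these channels. ERC1, a scaffold of secretory sites, fell by 0.99, SLC24A3, a potassium-dependent sodium/calcium exchanger, by 1.13 and SLC8A1, a sodium/calcium exchanger, by 1.11. Of the members that did not pass, the bicarbonate transporter SLC4A4 was at -0.28 with a mean of 8.08 CPM (adjusted p = 0.115). The median level of this list was 2.30 CPM, the lowest of the lists.

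A mixed list of metabolic, DNA repair and RNA modification genes had 13 of 19 tested members lowered (68.4%) and 1 raised (ATRNL1, 5.26%). Its median log2 fold change was -0.57. ADK, adenosine kinase, stood at 76.7, 72.9 and 73.3 CPM in the libraries labelled ATP6AP1 siRNA, against 177, 177 and 169 CPM in the control siRNA libraries (log2 fold change -1.23, SE 0.0576, edgeR adjusted p = 7.81e-09). DPYD, which breaks down pyrimidines, fell by 0.82, and PSD3, an exchange factor for ARF6, fell by 1.46. AFF3, a subunit of elongation complexes, fell by 0.72. CDKAL1, a tRNA-modifying methylthiotransferase, was at 0.15 with overlapping groups and did not pass (adjusted p = 0.278). The list holds genes of unlike function.

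The median log2 fold change of members at common fragile sites was -0.73. None was raised, though DMD was with library size alone or with the trend on transcript length and GC removed. Members at such sites, most of which also stand in a list above, were lowered in 13 of 16 tested (81.25%), and 9 to 12 were without 1 library. Besides SMYD3, CDH13 and DPYD, they included EXOC4, a subunit of the exocyst, at 42.9 ± 1.91 CPM in the libraries labelled ATP6AP1 siRNA and 69.1 ± 1.03 CPM in the control siRNA libraries (n = 3 each, ± SD), a log2 fold change of -0.69 (edgeR adjusted p = 1.80e-06). WWOX, an oxidoreductase gene at a fragile site on chromosome 16, stood at 7.82, 6.28 and 7.57 CPM in the libraries labelled ATP6AP1 siRNA and 8.60, 7.68 and 6.24 CPM in the control siRNA libraries. Its groups overlapped (-0.05, SE 0.150, adjusted p = 0.786), with a 95% confidence interval of -0.38 to 0.27. The 28 tested members in no list had 18 lowered (64.3%) and 3 raised (10.7%), with a median of -0.46. PALM2AKAP2, an anchoring protein for protein kinase A and the most abundant member, stood at 281, 282 and 289 CPM in the libraries labelled ATP6AP1 siRNA, against 564, 617 and 624 CPM in the control siRNA libraries (-1.08).

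**Figure D3:**
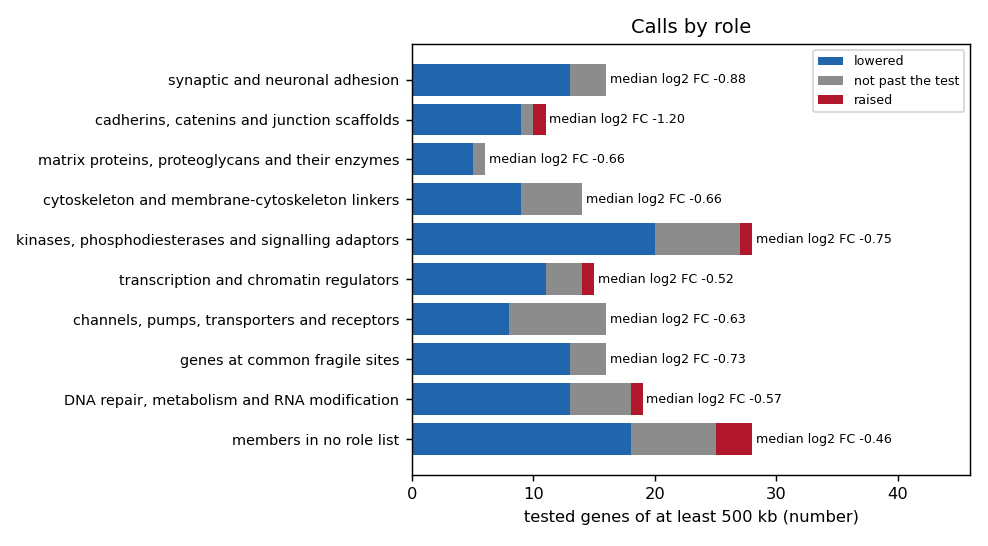
Number of tested members lowered, not past the test and raised in each list of functions (horizontal axis, genes), with the list's median log2 fold change beside each bar. Lowered members outnumber the others in each list but channels, where 8 of 16 were lowered.

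The lowered share was higher in members of higher level. All 32 members with a mean of at least 30 CPM were lowered (median log2 fold change -0.98), where 35.9% of the 6969 protein-coding genes of that level were. Over the alternatives run, 29 to 32 of the 32 passed. Of 50 members of 10 to 30 CPM, 42 were lowered, of 40 members of 2 to 10 CPM, 25, and of 33 members under 2 CPM, 8, where the shares of all protein-coding genes at these levels were 24.2, 18.7 and 7.52%. The background share thus rises with level too. Across the 155 tested members the Spearman correlation of log2 fold change with mean CPM was -0.35, a description over genes that share the same 6 libraries. These level classes were drawn after the data were seen.

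**Figure D4:**
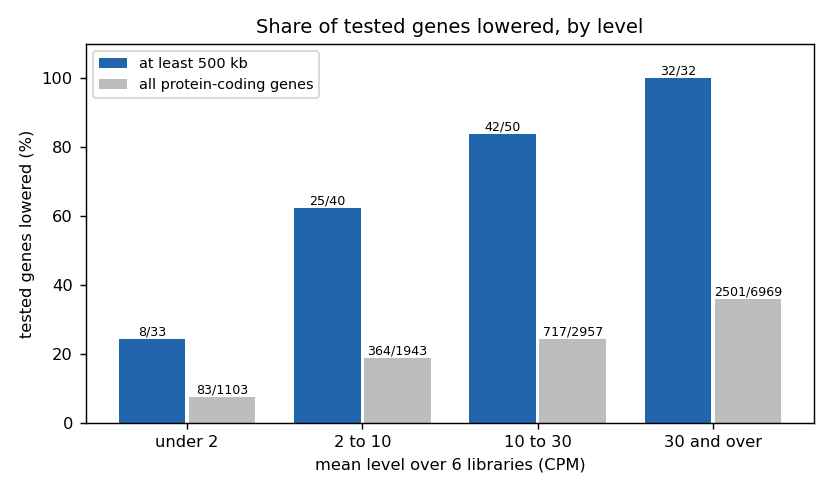
Percent of tested genes lowered in the libraries labelled ATP6AP1 siRNA (vertical axis) by mean level in CPM, for members (left bar) and for all protein-coding genes (right bar), with the number lowered over the number tested. All 32 members of 30 CPM and over were lowered.

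The raised members were few and mostly of low level. The 4 with at least 2 CPM changed by less than 2-fold. CREB5, a CRE-binding transcription factor, stood at 21.0, 22.5 and 22.4 CPM in the libraries labelled ATP6AP1 siRNA, against 16.9, 17.5 and 17.03 CPM in the control siRNA libraries (log2 fold change 0.36, SE 0.0802, edgeR adjusted p = 0.00220). HIVEP3, a zinc finger factor that binds kappa-B sites, stood at 24.97, 20.1 and 21.6 CPM in the libraries labelled ATP6AP1 siRNA, against 14.6, 15.9 and 18.2 CPM in the control siRNA libraries (0.45). ATRNL1, an attractin-like membrane protein, was at 6.14 ± 0.569 CPM in the libraries labelled ATP6AP1 siRNA and 4.35 ± 0.757 CPM in the control siRNA libraries (SD, n = 3 each; 0.50). PDE4B stood at 4.67, 5.61 and 5.32 CPM in the libraries labelled ATP6AP1 siRNA, against 3.83, 3.44 and 3.62 CPM in the control siRNA libraries (0.52). The ATRNL1 call was lost without ATP6AP1 siRNA replicate 1 (0.45, adjusted p = 0.0647) or control siRNA replicate 3 (0.38, 0.0805), and that of PDE4B without ATP6AP1 siRNA replicate 2 (0.46, 0.0625) or control siRNA replicate 2 (0.49, 0.0518).

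The 3 raised members under 2 CPM had the larger folds and were named after their values were seen. PCDH9, a protocadherin, stood at 1.94, 2.11 and 3.54 CPM in the libraries labelled ATP6AP1 siRNA, against 0.942, 1.14 and 1.01 CPM in the control siRNA libraries (log2 fold change 1.30, edgeR adjusted p = 0.00211). EGLN3, an oxygen-sensing prolyl hydroxylase, stood at 0.849, 0.966 and 1.02 CPM in the libraries labelled ATP6AP1 siRNA, against 0.294, 0.698 and 0.356 CPM in the control siRNA libraries (1.04). ENSG00000282278 was at 1.62, but 100% of its exonic bases lie in exons of PDGFRA or other genes, so its value is uncertain. At this level each library holds few counts of such a gene.

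Within the members, the median change was alike in each class of length. The median log2 fold change was -0.75 for members of 500 to 600 kb, -0.65 for 600 to 750 kb, -0.71 for 750 to 1000 kb and -0.76 above that, and the Spearman correlation with span over the 155 tested members was -0.007. Across tested protein-coding genes the class medians were 0.011 under 10 kb, 0.11 for 10 to 30 kb, 0.028 for 30 to 100 kb, -0.16 for 100 to 200 kb and -0.43 for 200 to 500 kb. Of 810 tested genes of 200 to 500 kb, 503 were lowered (62.1%) and 48 raised (5.93%), beside 26.6% and 26.7% of all tested genes. Of 17 tested noncoding genes of at least 500 kb, 7 were lowered (41.2%) and 1 raised (5.88%), with a median of -0.38.

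Of the longest tested members, NRXN3 and MAGI2 were lowered, DMD, DLG2 and PDE4D did not pass the test, and none of these was raised. Among the 22 tested members of at least 1000 kb, 15 were lowered (68.2%, beside 26.6% of all tested genes) and none raised. Their median log2 fold change was -0.76. DMD, the longest at 2242 kb, stood at 11.5, 9.54 and 10.1 CPM in the libraries labelled ATP6AP1 siRNA, against 8.54, 9.13 and 9.69 CPM in the control siRNA libraries, with overlapping groups. The next in length were DLG2 (0.26, not past the test), NRXN3 (-1.42, lowered), PDE4D (-0.17, not past the test) and MAGI2, a membrane scaffold of cell junctions (-1.14, lowered). At the other end, the tested members just inside the limit, CPQ (a carboxypeptidase), ERC1, GSE1 (a chromatin cofactor) and PRKCA, were at -0.46, -0.99, -0.78 and -1.53. The genes just outside it, DIAPH3 (a formin), ITPR2 (a calcium release channel), CACNA2D1 (a calcium channel subunit) and RPS6KA2 (a kinase downstream of ERK), were at -0.78, -0.35, -0.53 and -0.64.

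The annotated span of a gene can exceed that of its main transcript. The canonical transcript covered at least 500 kb in 111 of the 155 tested members, of which 77 were lowered and 4 raised (median log2 fold change -0.74). It covered 300 to 500 kb in 30, of which 21 were lowered and 2 raised (-0.52), and less in 14, of which 9 were lowered and 1 raised (-0.65). NRG1 and RUNX1, with canonical transcripts of 225.736 and 261.502 kb, are in the last class, as is GSE1 at 62.879 kb. RPS6KA2, just outside the limit by annotated span, has a canonical transcript of 217.888 kb. Members with 1 start in RefSeq were lowered in 34 of 50 (68%), and those with several in 52 of 78 (66.7%). Over all tested genes 26.6% were lowered and 26.7% raised. These splits were made after the data were seen.

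Other features of the members had weak correlations with the change. Tested members had a median of 18 exons, a longest intron of 214 kb and an exonic length of 12308 bases, beside 9 exons, 10.9 kb and 5416 bases over tested protein-coding genes. Across the 155 the Spearman correlation with log2 fold change was 0.025 for the number of exons, -0.13 for the longest intron, -0.17 for the first intron, -0.052 for exonic length and -0.085 for the GC content of the transcript, all descriptions over genes of the same libraries. Lowered members occurred on each of the 22 chromosomes that held a tested member. A total of 66 tested members shared no exonic base with another gene. Of these, 42 were lowered (63.6%) and 3 raised (4.55%), beside 26.6% and 26.7% of all tested genes.

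Members that did not pass the test at the highest levels were SYNE1, MAST4, HDAC9, SPAG16, CDKAL1 and PDE4D. SYNE1 stood at 23.7, 26.9 and 26.0 CPM in the libraries labelled ATP6AP1 siRNA, against 24.7, 26.8 and 26.5 CPM in the control siRNA libraries. Its 95% confidence interval of -0.20 to 0.15 on the log2 scale leaves out the median change of the members. MAST4, a microtubule-associated kinase, stood at 18.7, 19.0 and 19.3 CPM in the libraries labelled ATP6AP1 siRNA, against 14.4, 18.3 and 17.3 CPM in the control siRNA libraries (0.19, adjusted p = 0.129). SPAG16, an axonemal protein gene of 1126 kb, was at -0.24 (adjusted p = 0.0663), and passed as lowered with the trend on transcript length and GC removed (-0.30, adjusted p = 0.00607).

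Short protein-coding genes that lie inside a very long one did not all share the call of their host. The hosts were not all lowered, as EGLN3 and ENSG00000282278 were raised. Among 9 tested genes of 1.42 to 54.8 kb nested in 9 tested members, 1 was lowered, 3 were raised and 5 did not pass, beside 26.6% lowered and 26.7% raised over all tested genes, with a median log2 fold change of 0.27 where their hosts had -0.30. CSTF2T, a polyadenylation factor paralogue inside PRKG1, rose by 0.68 (edgeR adjusted p = 2.78e-06), with PRKG1 at -0.78. SETMAR, a methyltransferase fused to a transposase, rose by 0.91 inside SUMF1, which fell by 0.36. TRIM32, a ubiquitin ligase inside ASTN2, rose by 0.27, with ASTN2 at -0.30 and not past the test, a call lost without ATP6AP1 siRNA replicate 2 (0.23) or control siRNA replicate 2 (0.24). MDH1, cytosolic malate dehydrogenase, fell by 0.24 inside WDPCP (0.09, not past the test), and by 0.10 with library size alone, where it did not pass. Of 5 nested in lowered hosts, 2 were raised and none was lowered. With library size alone LRRN3 (0.49, adjusted p = 0.0332) and C8orf48 (0.42, adjusted p = 0.0276), inside IMMP2L and DLC1, also passed as raised, and the hosts DLC1 and PRKG1 did not pass. The 9 were collected after the data were seen, and the difference between a nested gene and its host was not tested.

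**Figure D5:**
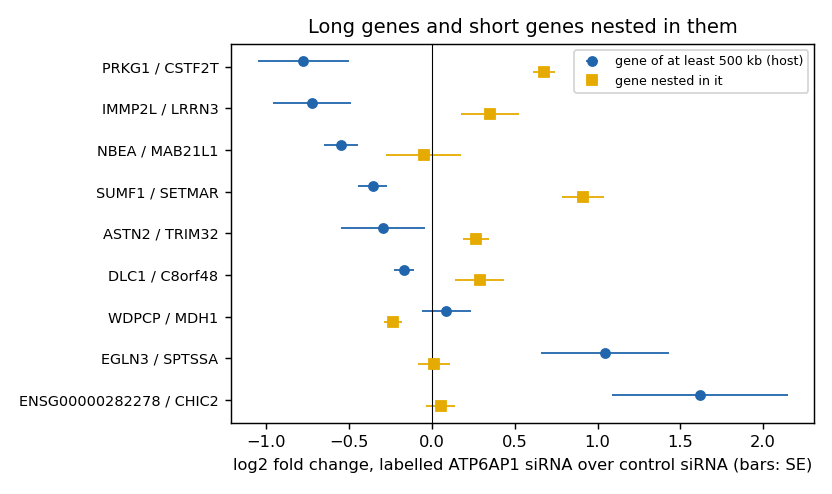
Log2 fold change, libraries labelled ATP6AP1 siRNA over control siRNA libraries (horizontal axis), for 9 members (circles) and the short protein-coding gene nested in each (squares), with bars for the SE. CSTF2T and SETMAR lie above 0 where their hosts PRKG1 and SUMF1 lie under it.

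Genes of the elongation machinery itself, none of them a member, were called in shares near those of all tested genes. Of 37 listed factors of elongation, topoisomerases and U1 proteins, 12 were raised (32.4%, against 26.7% of all tested genes), 9 were lowered (24.3%, against 26.6%) and 16 did not pass, with a median log2 fold change of 0.0027. POLR2A, the largest subunit of RNA polymerase II, stood at 432, 397 and 396 CPM in the libraries labelled ATP6AP1 siRNA, against 164, 180 and 197 CPM in the control siRNA libraries (1.18, edgeR adjusted p = 5.17e-08). CCNT1, the cyclin of the elongation kinase P-TEFb, rose by 1.22, and HEXIM1, its inhibitor, by 0.85. Of the exonic bases of HEXIM1, 14.3% were shared with other genes, the largest overlap being with HEXIM2-AS1. Among the lowered, ELL2, a subunit of the super elongation complex, fell by 0.68, and TOP2B, a topoisomerase that relieves supercoils in long genes, by 0.41.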

How the data were processed

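RNA was extracted with TRIzol, and poly(A) RNA was fragmented and copied with random primers for paired-end sequencing, per the labels' protocols. Tools listed in the submitters' processing notes are HISAT2 and featureCounts, with FastQC and Trimmomatic, as well as DESeq2, and the build is GRCh38 (hg38). The authors deposited 1 table of 32750 genes holding estimated counts (12.3 to 13.9% of values in a library are not whole), which were rounded here, although the tests were planned for whole counts. The sources used here do not give the annotation release, the strand setting or how fractional values arose.

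Spans and exons came from GENCODE release 44, which held 28456 of the IDs. Genes kept by filterByExpr (15372) were compared with edgeR 4.0.16 (R 4.3.3), a two-sided quasi-likelihood F test with TMM normalisation, group as the only term and Benjamini-Hochberg adjustment over all tested genes. The biological coefficient of variation was 6.89%, and no 2 libraries were duplicates. Counting intervals would cover counting error only. Named genes were ATP6AP1; the 12 lowered and up to 12 raised members with the largest fold change past the test, at least 2 CPM and no overlap between groups; the 4 most abundant of each list; the 5 longest; 4 on each side of the limit; the 6 most abundant, and 6 most abundant not past the test; 8 fixed by name; and 4 elongation genes. Some named members are not reported here. Further members of the lists were named after their values were seen. The members, lists and tests were chosen with earlier results of these data known. Alternatives included DESeq2 1.42.0 and limma-voom (limma 3.58.1). The steps were tested on simulated data: the share of false calls exceeded the nominal one with gene-wise dispersions, which were tried first, and was lower with trended ones.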

Additional observations from a re-analysis of the deposited data

How the results depend on the processing

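The count of lowered members ran from 90 to 109, and the median log2 fold change from -0.77 to -0.48, over the alternatives that kept the members and all libraries. Of 63 genes named by rule, 45 kept their direction and side of the threshold under every alternative run. Same-numbered libraries of the 2 groups showed no strong shared deviation (correlations -0.088, -0.029 and -0.10). The deviations are centred within each group of 3, so these values cannot show whether same-numbered samples were handled together. With the replicate block, 99 members were lowered and 6 raised, where 3576 and 3619 of all 15372 tested genes were. Library size alone moved the median of all tested genes by 0.14, with 5618 of all 15372 tested genes raised and 2733 lowered. It gave 11 raised members of 155 (7.10%) and a median over members of -0.59. Its list medians were -0.74 for synaptic adhesion, -1.07 for junctions, -0.52 for matrix (3 lowered), -0.53 for cytoskeleton (1 raised), -0.61 for signalling (2 raised), -0.39 for transcription (2 raised), -0.50 for channels, -0.59 for fragile sites (1 raised) and -0.44 for the mixed metabolic list (2 raised). With no filter the members' median was -0.48, and the list medians were -0.50 for synaptic adhesion, -0.997 for junctions, -0.38 for matrix, -0.59 for cytoskeleton, -0.57 for signalling, -0.24 for channels and -0.42 for the mixed list. With 5 CPM in 3 libraries 3 of 106 members were raised (2.83%), where 3678 of all 11582 tested genes were. In the junction and signalling lists 0 were raised, and the medians of signalling and channels were -0.82 and -1.10. An adjusted p of 0.01 and a test against a fold of 1.2 each left 3 of 155 raised (1.94%), with 0 in the signalling and mixed lists. The fold test left 3 matrix genes lowered. Over all 15372 tested genes it left 2386 raised and 2250 lowered. With the trend on transcript length and GC removed 11 of 155 were raised (7.10%), where 4342 of all 15372 tested genes were raised and 4838 lowered. The raised members included 2 each in the cytoskeleton, signalling and transcription lists and 1 at fragile sites. Medians were then -1.11 for junctions, -0.49 for cytoskeleton and -0.34 for transcription. The cause of these shifts was not tested, except that filters and thresholds change how many genes can be called.

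By construction of the set, a limit of 400 kb gave 185 of 267 tested lowered (69.3%) and 12 raised (4.49%), with a median of -0.62. A limit of 750 kb gave 41 of 60 lowered (68.3%) and 3 raised (5%). Members with no shared exonic base gave 42 of 66 (63.6%) and 3 (4.55%). Over all tested genes 26.6% were lowered and 26.7% raised. The canonical transcript as the span, an alternative added after the data were seen, gave 77 of 111 lowered (69.4%) and 4 raised (3.60%). Leaving out 1 library, the lowered members numbered 96 to 105, where 3350 to 4010 of all tested genes were lowered. They numbered 11 to 14 in synaptic adhesion, 9 in junctions, 4 in matrix, 7 to 9 in cytoskeleton and 18 to 19 in signalling. In transcription they were 9 to 11, in channels 8 to 9, at fragile sites 9 to 12 and in the mixed list 9 to 13. The raised members numbered 4 to 6 (4 without ATP6AP1 siRNA replicate 2), with 0 to 1 in signalling, 0 to 1 in the mixed list and 1 to 2 in transcription. List medians then ran from -1.28 to -1.10 for junctions, -0.71 to -0.61 for channels, -0.70 to -0.58 for cytoskeleton, -0.77 to -0.66 for signalling, -0.70 to -0.53 for matrix, -1.03 to -0.80 for synaptic adhesion and -0.59 to -0.43 for transcription. Genes not past the test changed sign: SYNE1 was at 0.11 with library size alone, 0.29 with the length and GC trend removed and -0.062 to 0.027 without 1 library, WWOX at 0.083 with library size alone and -0.15 to 0.068 without 1 library, MAB21L1 at 0.086 and -0.11 to 0.093, SPTSSA at -0.11 with the trend removed and -0.11 to 0.078 without 1 library, and CHIC2 at -0.038 to 0.12 without 1 library. With library size alone CDKAL1, DMD, HDAC9 and MAST4 passed as raised, where 5618 of all 15372 tested genes did. With the trend removed DMD, HDAC9, MAST4 and SYNE1 passed as raised, where 4342 of all tested genes did. Members of the lowest levels are limited by depth.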
